A study of Homo sapiens with 10 samples.

Results

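The genes described here are those that encode the proteins of the cytosolic ribosome. They were chosen by name: symbols RPL or RPS followed by a number and at most 1 letter A, X or Y, plus RPLP0, RPLP1, RPLP2 and RPSA. Of the 23089 genes in the count table, 77 were members by this rule, 31 for the small subunit and 46 for the large subunit. All 77 passed the filter on low counts in every comparison.

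The cytosolic ribosome has a small subunit, which binds the mRNA and reads its codons, and a large subunit, which forms the peptide bond. Each subunit joins ribosomal RNA to many ribosomal proteins, which are needed in about equal amounts and come from genes scattered over the chromosomes. The mRNAs of these genes are abundant, short and stable, and most begin with a C followed by a run of pyrimidines, the 5′ terminal oligopyrimidine (TOP) motif, through which their translation is tied to nutrient and mTOR signalling.

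RNA came from U2OS cells, a human osteosarcoma line, harvested 3 days after transfection with siRNAs against the histone variant H2A.Z, to ask which genes each of its isoforms controls. H2A.Z replaces H2A in some nucleosomes, many of them at promoters. H2AFZ encodes the isoform H2A.Z.1, and H2AFV encodes H2A.Z.2. There were 5 conditions with 2 libraries each: control siRNA 3 (siCtrl 3), control siRNA 4 (siCtrl 4), the siRNA against H2A.Z.1 (siH2A.Z1), the siRNA against H2A.Z.2 (siH2A.Z2), and both of these together (siH2A.Z1 and siH2A.Z2, here the combined depletion). Each isoform was targeted by 1 siRNA in 1 cell line, so an effect of losing the isoform cannot be told apart from another effect of that siRNA, and the samples were transfected in parallel, so the p-values measure the spread between these samples. The comparisons with controls share the same 4 control libraries.

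The starts of some members are printed to show the TOP motif, which the choice of members did not use. A start was counted as TOP when a C followed by at least 4 C or T began within 5 bases of an annotated RefSeq start (GRCh38.p14) on the gene's strand. An annotated start was at hand for 62 members, and 53 of them (85.5%) had such a run, against 28.1% of the 14857 genes of the count table with a start. The windows hold 10 bases before the start and 20 from it, 5′ to 3′, with the run in capitals. The first 4 genes were called higher upon H2A.Z.1 depletion (RPS27, RPS6, RPL31 and RPL11) and the last 3 were not (RPLP0, RPL3 and RPSA).
RPS27, chr1:153990752-153990781, plus strand: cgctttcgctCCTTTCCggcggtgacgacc
RPS6, chr9:19380217-19380246, minus strand: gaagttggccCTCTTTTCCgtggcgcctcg
RPL31, chr2:101002279-101002308, plus strand: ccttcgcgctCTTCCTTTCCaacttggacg
RPL11, chr1:23691796-23691825, plus strand: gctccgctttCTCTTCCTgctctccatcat
RPLP0, chr12:120201092-120201121, minus strand: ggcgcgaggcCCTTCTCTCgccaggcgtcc
RPL3, chr22:39319604-39319633, minus strand: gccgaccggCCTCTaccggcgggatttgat
RPSA, chr3:39406710-39406739, plus strand: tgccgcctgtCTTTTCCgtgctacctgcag
The run stood at the start, or 1 base before it for RPL3, in genes of both kinds; RPL11 has another annotated start, also with a run. Among members with a TOP start 26 of 53 were called higher upon H2A.Z.1 depletion, and among the 9 members whose starts lacked it 5 were, where 11.1% of the 3324 other genes with a TOP start and 12.2% of all genes tested were called higher. Those 9 include RPL9, RPS4X and RPS26, which were called higher, and RPL15, which was not. The split depends on the window of 5 bases. RPL9, RPS26 and, at an annotated start, RPL15 had such a run further downstream, within the 20 bases from the start. These members are therefore not shown to lack the motif.

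The libraries held 16716990 to 26946836 counts on genes, and levels are given as CPM, counts scaled to library size by TMM, a factor that evens out library composition. H2AFZ had 279 and 277 CPM (siCtrl 3), 204 and 226 CPM (siCtrl 4), 19.6 and 19.1 CPM with siH2A.Z1, 241 and 261 CPM with siH2A.Z2 and 22.5 and 22.1 CPM in the combined depletion. H2AFV had 248 and 239 CPM (siCtrl 3), 143 and 147 CPM (siCtrl 4), 200.2 and 183 CPM with siH2A.Z1, 63.8 and 65.5 CPM with siH2A.Z2 and 80.4 and 71.1 CPM in the combined depletion. Each siRNA thus went with a lower level of its target, although for H2AFV the fall with siH2A.Z2 missed the threshold against the pooled controls (log2 fold change -1.59, adjusted p = 0.0754), whose siRNAs differed from each other. Of the 6 mesenchymal and osteoblast markers, VIM, SPARC, FN1 and COL1A1 were at 373 CPM or more in every library and RUNX2 at 10.8 to 22.8 CPM, but COL1A2 was under 2 CPM in every library. These markers moved with siH2A.Z1 beside the members: their summed level was 4727 to 4733 CPM with siH2A.Z1, 5759 to 7982 CPM in the controls, 6425 to 7037 CPM with siH2A.Z2 and 5909 to 5962 CPM in the combined depletion, and 2 of 6, VIM (log2 fold change -0.94 ± 0.20 SE, adjusted p = 0.0139) and COL1A1 (log2 fold change -0.72 ± 0.22 SE, adjusted p = 0.0473), were called lower. Of the 4 epithelial markers, KRT8 and KRT18 were at 69 to 421 CPM and EPCAM and CDH1 under 4 CPM, and CDH1 was called lower with siH2A.Z1 (log2 fold change -2.84 ± 0.46 SE, adjusted p = 0.0063). Their sum was 490 to 497 CPM with siH2A.Z1, within the 288 to 519 CPM of the controls. The blood and endothelial markers summed to at most 1.44 CPM in any library, with CD3E at 0 in 9 of 10 libraries and PECAM1, under 1 CPM throughout, called lower with siH2A.Z1 (-2.58). Their part in the members' values was not tested.

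The members together held a larger share of the library upon H2A.Z.1 depletion than in any other condition. The siCtrl 3 libraries gave them 4.06% and 3.99% of all gene counts, siCtrl 4 gave 3.61% and 3.66%, siH2A.Z1 gave 5.3% and 5.26%, siH2A.Z2 gave 3.39% and 3.61% and the combined depletion gave 4.8% and 4.38%. Both siH2A.Z1 libraries lay above all other libraries, the combined depletion came next, and one siH2A.Z2 library overlapped siCtrl 4. The mean with siH2A.Z1 was 1.38 times that of the 4 control libraries, 1.41 times for the small and 1.35 times for the large subunit. The ratio of small to large subunit counts ranged from 0.712 to 0.764 over the 10 libraries and was highest with siH2A.Z1 replicate 1. A share is relative: in bulk RNA, more of these mRNAs per cell, less of other RNA and a change in the mix of cells cannot be told apart.

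**Figure D1:**
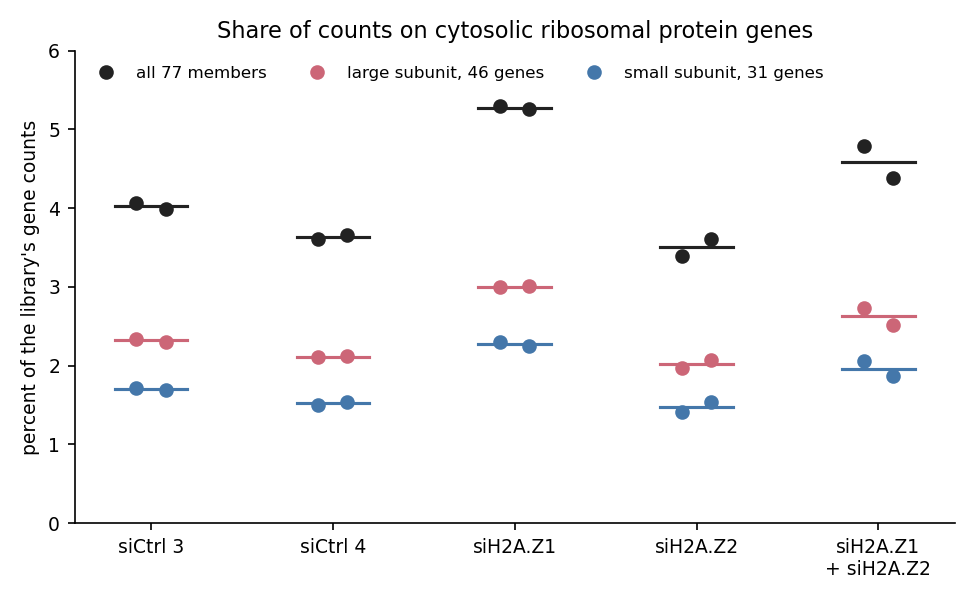
Share of each library's gene counts (vertical axis, percent) held by all 77 members, the 46 large subunit genes and the 31 small subunit genes, by condition (horizontal axis). Points are single libraries and bars the mean of 2; the siH2A.Z1 points for all members sit at 5.3% and 5.26%, above every other library.

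Upon H2A.Z.1 depletion, 41 of the 77 members were up-regulated and 0 were down-regulated by edgeR (adjusted p under 0.05 and a log2 fold change beyond 0.32 in size), where 12.2% of all 16112 genes tested were up-regulated and 15.7% down-regulated. All 53 members with an unadjusted p under 0.05 were higher. DESeq2 called 45 members higher and 0 lower, with 9.92% of all genes higher and 13.3% lower. The median log2 fold change of the members was 0.40 (range -0.23 to 0.82), against -0.02 for all genes tested, and 71 of 77 were above 0. In 60 members both siH2A.Z1 libraries exceeded all 4 control libraries, the 41 called members among them, while 27% of all genes did so, and in 1 member both lay below all controls, against 27.3% of all genes. The calls rest on both siH2A.Z1 libraries. Without either of them most of the members' calls were lost, and calls over all genes fell as well. The members' median was 0.47 without replicate 1 and 0.38 without replicate 2. The direction of the median held under every scaling run, and scaling by library size alone gave 55 members up-regulated, with 17% of all genes, while moving the median of all genes by 0.10.

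Among small subunit members, 15 of 31 were up-regulated (median 0.43), led by RPS15A, RPS27 and RPS25. RPS15A was at 221 and 234 CPM with siCtrl 3, 183 and 204 CPM with siCtrl 4 and 344 and 403 CPM with siH2A.Z1 (log2 fold change 0.82 ± 0.13 SE, adjusted p = 0.0051). RPS27, a zinc finger protein of the small subunit, was at 213 and 202 CPM with siCtrl 3, 175 and 180.3 CPM with siCtrl 4 and 284 and 397 CPM with siH2A.Z1 (log2 fold change 0.82 ± 0.15 SE, adjusted p = 0.00972). In both genes the siH2A.Z1 libraries lay above all controls, but the siH2A.Z1 libraries of RPS27 were far apart. RPS25, which is needed for initiation on some viral internal entry sites, was at 233 and 237 CPM with siCtrl 3, 184 and 193 CPM with siCtrl 4 and 344 and 351 CPM (log2 fold change 0.71 ± 0.13 SE, adjusted p = 0.00978). RPS6, the classic substrate of the S6 kinases, was at 1359 and 1327 CPM with siCtrl 3, 1165 and 1177 CPM with siCtrl 4 and 1909.6 and 1912 CPM with siH2A.Z1 (log2 fold change 0.60 ± 0.10 SE, adjusted p = 0.00661). RPS26, mutated in some patients with Diamond-Blackfan anaemia, also rose (log2 fold change 0.55 ± 0.15 SE, adjusted p = 0.0334), whereas RPS19, the gene most often mutated there, was higher in both libraries than in all controls without passing the test (log2 fold change 0.33 ± 0.11 SE, adjusted p = 0.0539). RPS27A, made as a fusion with ubiquitin, was at 552 and 493 CPM with siCtrl 3, 415 and 419 CPM with siCtrl 4 and 650.0 and 575 CPM with siH2A.Z1 and did not pass either (log2 fold change 0.38 ± 0.15 SE, adjusted p = 0.0932).

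In the large subunit 26 of 46 members were up-regulated (median 0.40). RPL5 and RPL11, which bind the 5S ribosomal RNA and, when free of ribosomes, the p53 regulator MDM2, both rose. RPL5 was at 751 and 749.8 CPM with siCtrl 3, 616 and 657 CPM with siCtrl 4 and 1053 and 1066 CPM with siH2A.Z1 (log2 fold change 0.61 ± 0.11 SE, adjusted p = 0.00948). RPL11 was at 304 and 270.0 CPM with siCtrl 3, 259 and 262 CPM with siCtrl 4 and 381 and 479 CPM with siH2A.Z1 (log2 fold change 0.65 ± 0.12 SE, adjusted p = 0.00978). Neither gene's siH2A.Z1 libraries overlapped the controls. RPL31 had even controls, 470.4 and 475 CPM with siCtrl 3 and 457 and 457 CPM with siCtrl 4, against 704 and 726 CPM (log2 fold change 0.62 ± 0.08 SE, adjusted p = 0.0025). RPL30 was at 208 and 196 CPM with siCtrl 3, 132 and 136 CPM with siCtrl 4 and 283 and 307 CPM (log2 fold change 0.81 ± 0.21 SE, adjusted p = 0.029), so its control siRNAs differed from each other. Of the 10 members listed for Diamond-Blackfan anaemia, 7 were up-regulated (median 0.55), against 53.2% of all members and 12.2% of all genes. Whether these 10 differ from the other members was not tested.

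The other 36 members were not called, RPS3 (log2 fold change 0.30 ± 0.08 SE, adjusted p = 0.0318) only for the size of its change. The stalk proteins RPLP0, RPLP1 and RPLP2, which recruit elongation factors, had log2 fold changes of 0.14, 0.07 and 0.25, and 0 of 3 were called. RPLP0 was at 2119 and 2129 CPM with siCtrl 3, 1856 and 1867 CPM with siCtrl 4 and 2273 and 2115 CPM with siH2A.Z1, within the range of the controls for 1 of its 2 libraries. RPSA, a small subunit protein also known as the laminin receptor, had the lowest fold change, at 1117 and 1186 CPM with siCtrl 3, 987 and 1040.4 CPM with siCtrl 4 and 966 and 879.7 CPM with siH2A.Z1 (log2 fold change -0.23 ± 0.11 SE, adjusted p = 0.157). Both siH2A.Z1 libraries of RPSA were below all controls, the only member of which this was true. RPL15 (log2 fold change -0.13 ± 0.10 SE, adjusted p = 0.377), RPL3 (log2 fold change -0.10 ± 0.10 SE, adjusted p = 0.494) and RPS10 (log2 fold change -0.20 ± 0.27 SE, adjusted p = 0.603) were the other members with the lowest values, and RPL3 forms part of the peptidyl transferase region. RPL10 (log2 fold change 0.22), RPL22 (0.16) and RPL39 (0.09) were not called either.

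Upon H2A.Z.2 depletion no rise of these genes was detected. By edgeR 0 of 77 members were up-regulated and 0 down-regulated, with 0.605% of all 16188 genes tested up-regulated and 0.179% down-regulated. An unadjusted p under 0.05 was found for 6 members, a count that was not made for all genes. DESeq2 called 1 member down-regulated, RPL13, and 0 up-regulated, with 1.19% of all genes down-regulated and 1.81% up-regulated. The median log2 fold change was -0.12 (range -0.45 to 0.19), and 14 of 77 members were above 0. In 22 members both siH2A.Z2 libraries were below all 4 controls, where 12.3% of all genes were, and in 0 members both were above, against 16.4%. RPL13 was at 510.2 and 469 CPM with siCtrl 3, 581 and 495 CPM with siCtrl 4 and 382 and 369 CPM with siH2A.Z2 (log2 fold change -0.45 ± 0.11 SE, adjusted p = 0.142), below all controls in both libraries. RPS10 (log2 fold change -0.43 ± 0.24 SE, adjusted p = 0.492), counted at under 100 reads a library, RPS28 (log2 fold change -0.40 ± 0.17 SE, adjusted p = 0.366) and RPL34 (log2 fold change -0.36 ± 0.10 SE, adjusted p = 0.209) followed, and RPS4X had the highest value (log2 fold change 0.19 ± 0.18 SE, adjusted p = 0.68). The choice of control siRNA mattered here: against siCtrl 3 alone 9 members were called lower and 1 higher (median -0.19), where 5.19% of all genes were lower and 8.99% higher. Against siCtrl 4 alone 2 members were lower and 1 higher (median -0.014), where 12.7% of all genes were lower and 16.9% higher.

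Set directly against each other, the depletions differed in most members. With siH2A.Z1, 58 of 77 members were higher than with siH2A.Z2 and 0 were lower, against 13.9% and 18.4% of the 16486 genes tested. The median log2 difference was 0.53 (range -0.08 to 0.86), and 76 of 77 members were above 0. In 67 members both siH2A.Z1 libraries exceeded both siH2A.Z2 libraries, as in 36.2% of all genes, and in 0 members both lay below, against 38.6%. All 63 members with an unadjusted p under 0.05 were higher with siH2A.Z1. RPS6 was at 1909.6 and 1912 CPM with siH2A.Z1 and 1012 and 1133 CPM with siH2A.Z2 (log2 fold change 0.83 ± 0.12 SE, adjusted p = 0.000947). RPL13, of the large subunit, was at 694 and 596 CPM against 382 and 369 CPM (log2 fold change 0.78 ± 0.12 SE, adjusted p = 0.00115). RPL34 (log2 fold change 0.84 ± 0.13 SE, adjusted p = 0.00122) and RPL35 (log2 fold change 0.58 ± 0.09 SE, adjusted p = 0.00136) had the next lowest adjusted p among members. RPLP1 and RPLP2, not called against the controls, were called here (0.34 and 0.36), and RPSA was the 1 member below 0 (-0.08, adjusted p = 0.642). The count fell most without siH2A.Z2 replicate 1 and without siH2A.Z1 replicate 1, and calls over all genes also fell there.

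**Figure D2:**
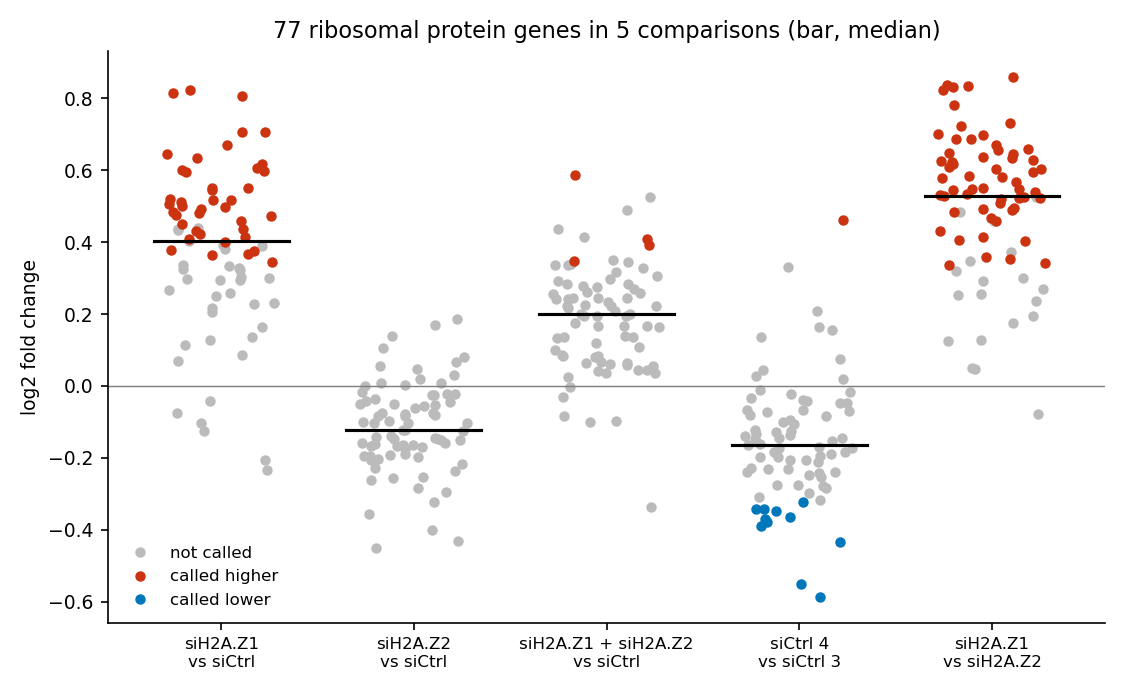
Log2 fold change (vertical axis) of the 77 members in 5 comparisons (horizontal axis); each point is a gene, red called higher, blue called lower, grey not called, and the bar is the median. The medians are 0.40, -0.12, 0.20, -0.17 and 0.53 from left to right.

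In the combined depletion the mean level lay between those of the controls and of the H2A.Z.1 depletion in 67 of 77 members. How often this held among all genes was not counted, so it is not shown to be particular to the members. Against the controls edgeR called 4 of 77 members up-regulated and 0 down-regulated, where 7.77% of all 16184 genes were up-regulated and 9.35% down-regulated. An unadjusted p under 0.05 was found for 24 members, all higher. DESeq2 called 6 members higher and 0 lower, with 6.93% of all genes higher and 9.77% lower. By edgeR the share of members called was below that of all genes, although the median was 0.20 (range -0.34 to 0.59) and 71 members were above 0. The 4 were RPS15A, RPL31, RPL32 and RPL27A, the last 2 named after their values were seen. With a term for replicate number added to the fit, 0 members and 3.15% of all genes were called higher. With the numbers of the combined depletion crossed, chosen after seeing the data, 1 member and 4.43% of all genes were. RPS15A was at 342 and 285 CPM (log2 fold change 0.59 ± 0.13 SE, adjusted p = 0.0257) and RPL31 at 660.1 and 563 CPM (log2 fold change 0.41 ± 0.09 SE, adjusted p = 0.027), above all controls in both libraries. In 32 members both combined libraries exceeded all controls, against 24.2% of all genes, and in 1 both were lower, against 24.8%. The libraries of the combined depletion differed from each other more than those of the other conditions, with member shares of 4.8% and 4.38%. The count of 4 fell to 0 without siCtrl 4 replicate 2, to 1 without siCtrl 3 replicate 1 and to 2 without siCtrl 4 replicate 1. Of all genes 4.86%, 5.72% and 6.71% were called higher in these fits. The calls also rest on both combined libraries, and without either of them calls fell over all genes as well. Against siCtrl 4 alone it was 36, where 23.9% of all genes were called higher, and against siCtrl 3 alone 4, where 18.4% were.

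The median log2 difference of the combined depletion against siH2A.Z1 was -0.22 and 6 of 77 members were above 0. By edgeR 0 members were called in either direction, against 3.79% of all genes (2.64% higher and 1.15% lower), and 26 members had an unadjusted p under 0.05, 25 of them lower. RPL11 had the lowest value, with 381 and 479 CPM in siH2A.Z1 and 353 and 295 CPM in the combined depletion (log2 fold change -0.41 ± 0.14 SE, adjusted p = 0.145), and RPSA the highest (log2 fold change 0.27 ± 0.12 SE, adjusted p = 0.244). Against siH2A.Z2, all 77 members were above 0 in the combined depletion (median 0.30), 8 were called higher and 0 lower, and of all genes 4.77% were called higher and 9.05% lower. In 68 members both combined libraries exceeded both siH2A.Z2 libraries, against 32.4% of all genes. RPL13 (log2 fold change 0.47 ± 0.12 SE, adjusted p = 0.0289), RPS18 (log2 fold change 0.32 ± 0.08 SE, adjusted p = 0.0311), RPS6 (log2 fold change 0.46 ± 0.12 SE, adjusted p = 0.0338) and RPL31 (log2 fold change 0.37 ± 0.10 SE, adjusted p = 0.0361) had the lowest adjusted p among them. The count of members called higher against siH2A.Z2 rests on both libraries of each condition, and without any of them calls also fell over all genes. For the non-additive effect, the combined effect minus both single effects, 0 members passed an adjusted p of 0.05, as against 0.14% of all genes (0.0667% above and 0.0728% below 0), and 2 had an unadjusted p under 0.05, with a median of -0.11. Mean levels followed the order siH2A.Z2, controls, combined, siH2A.Z1 in 54 members, a count that was not made for all genes.

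**Figure D3:**
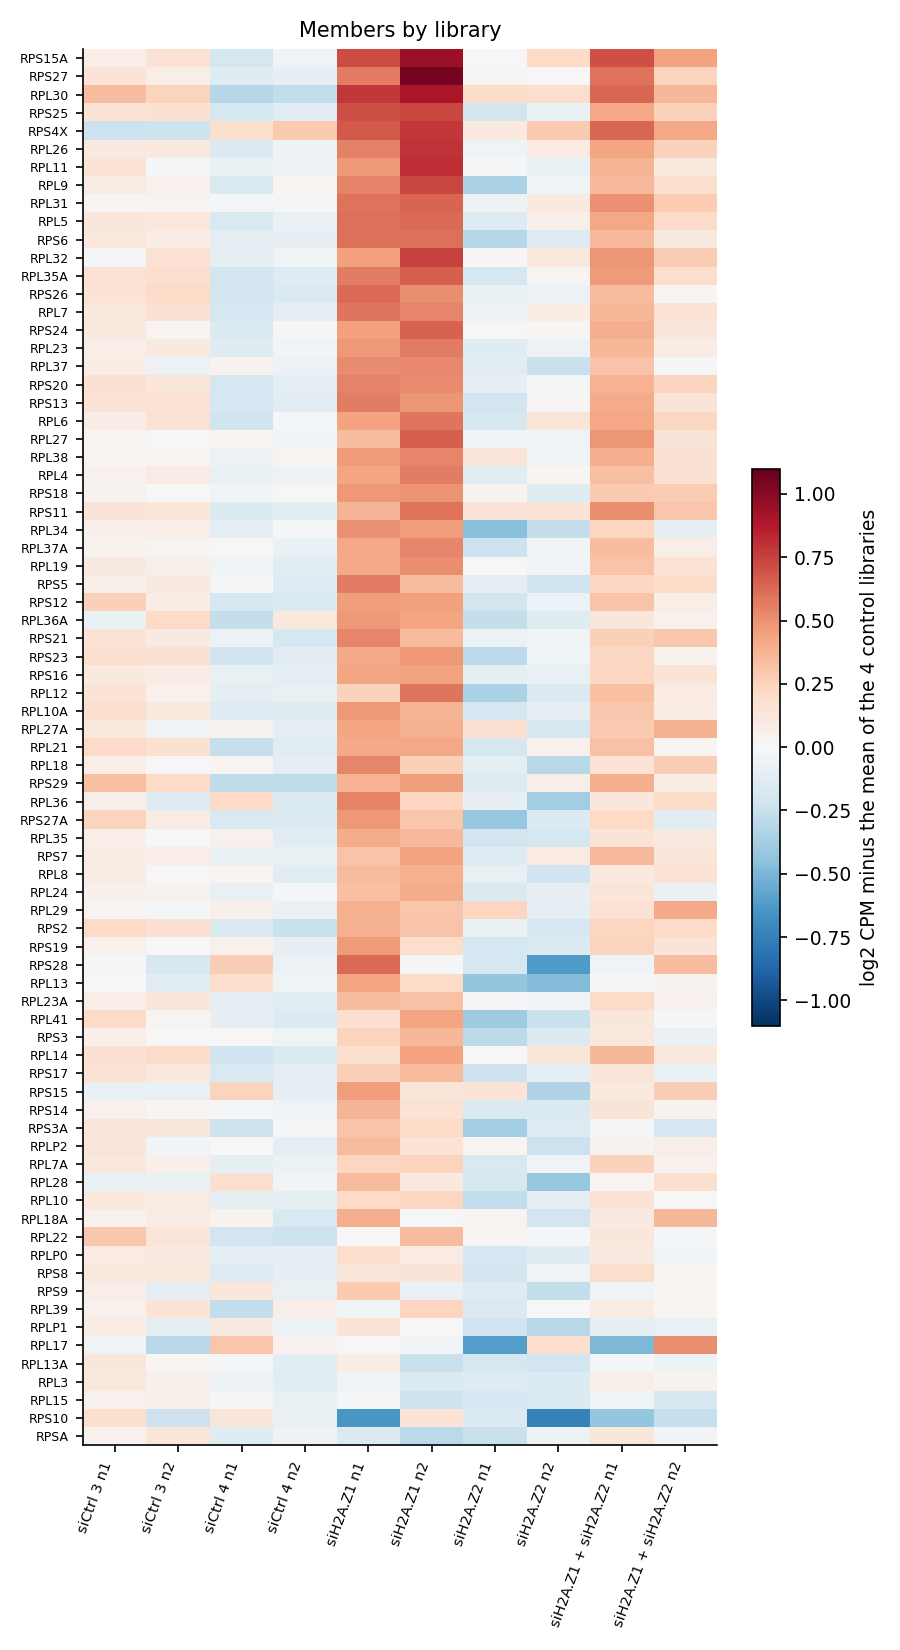
Log2 CPM of each member (rows, ordered by log2 fold change upon H2A.Z.1 depletion) minus its mean over the 4 control libraries, in each library (columns; n1 and n2 are the replicates), on a colour scale from blue (lower) to red (higher). The siH2A.Z1 columns are red for most rows, and the rows for RPSA, RPS10, RPL15 and RPL3 at the bottom are not.

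The control siRNAs themselves differed in these genes. With siCtrl 4, 11 of 77 members were lower and 1 was higher than with siCtrl 3, where 17.3% of the 16486 genes tested were lower and 17.2% higher, so the called share of members was below that of all genes. The median was -0.17 (range -0.59 to 0.46), and 10 members were above 0. RPL30 (log2 fold change -0.59 ± 0.09 SE, adjusted p = 0.000268), RPS29 (log2 fold change -0.55 ± 0.10 SE, adjusted p = 0.00128), RPL22 (log2 fold change -0.44 ± 0.11 SE, adjusted p = 0.00644) and RPS2 (log2 fold change -0.39 ± 0.07 SE, adjusted p = 0.00102) had the lowest values. RPS29, at 433 and 401 CPM with siCtrl 3, was at 285 and 285 CPM with siCtrl 4. RPS4X, encoded on the X chromosome, moved the other way, at 644 and 645 CPM with siCtrl 3 and 852 and 924 CPM with siCtrl 4 (log2 fold change 0.46 ± 0.09 SE, adjusted p = 0.00148). It was 1210.2 and 1296 CPM with siH2A.Z1, 816 and 924 CPM with siH2A.Z2 and 1171 and 1016 CPM in the combined depletion, so siCtrl 3 was its lowest condition. The count of members lower with siCtrl 4 fell without either siCtrl 3 library or siCtrl 4 replicate 1, and rose without siCtrl 4 replicate 2. Over all genes, lower calls also fell without either siCtrl 3 library or siCtrl 4 replicate 1.

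Within a library, levels can be compared between genes only per length. Per kilobase of the main annotated transcript, and averaged over the 10 libraries, the highest members were RPLP0 (1809.8 CPM per kb), RPS20 (1577), RPS29 (1294) and RPS12 (1256). The order depends on the length used: per kilobase of coding sequence RPLP1 ranked 1 and RPLP0 ranked 6. The lowest were RPS10, RPL17, RPL36A and RPL22, at 5.15, 5.21, 28.3 and 37.7 CPM per kb, and they were also the lowest per coding length. RPL17 had 48 to 97 counts per library, RPS10 41 to 99 and RPL36A 364 to 576, while the lowest count of any other member was 1280 (RPL22). Those 3 overlap annotated readthrough genes, with C18orf32, NUDT3 and HNRNPH2 as the neighbours joined to them, and these neighbours had 0 to 10, 4 to 17 and 2 to 12 counts. Reads that fall on more than 1 annotated gene are not counted by HT-seq in its default mode, so the levels of RPL17, RPS10 and RPL36A are uncertain. RPLP0 held 5.07% and RPL4 4.38% of the members' counts in the controls.

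Base composition moved with some of these values. Over the 74 members other than RPL17, RPS10 and RPL36A, the log2 fold change upon H2A.Z.1 depletion had Pearson r = -0.289 with the GC content of the transcript, and siCtrl 4 against siCtrl 3 had r = 0.344, as a description of genes that share libraries. It was -0.173 upon H2A.Z.2 depletion and -0.111 in the combined depletion. All other genes had r = -0.164 upon H2A.Z.1 depletion and 0.239 for siCtrl 4 against siCtrl 3. The difference between replicates also went with GC content, r = -0.25 for replicate 2 minus replicate 1 of siCtrl 3, -0.692 for siCtrl 4, -0.49 for siH2A.Z1, -0.658 for siH2A.Z2 and 0.699 for the combined depletion. In siH2A.Z1 against the controls, 16 of the 25 members with lowest GC (40.1% to 45.9%) were up-regulated (median 0.51), 14 of 24 in the middle (median 0.41) and 11 of 25 with highest GC (median 0.34). Among other genes between the lowest and highest GC of each class 16.2%, 13.9% and 7.35% were up-regulated, with medians of 0.06, -0.0088 and -0.16. By length, 24 of the 44 members with a main transcript under 1000 bases were up-regulated (median 0.40) and 17 of the 33 longer ones (median 0.41), and among 1515 other genes with a transcript under 1000 bases 9.7% were up-regulated (median 0.06). The part of base composition in the members' values was not tested.

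**Figure D4:**
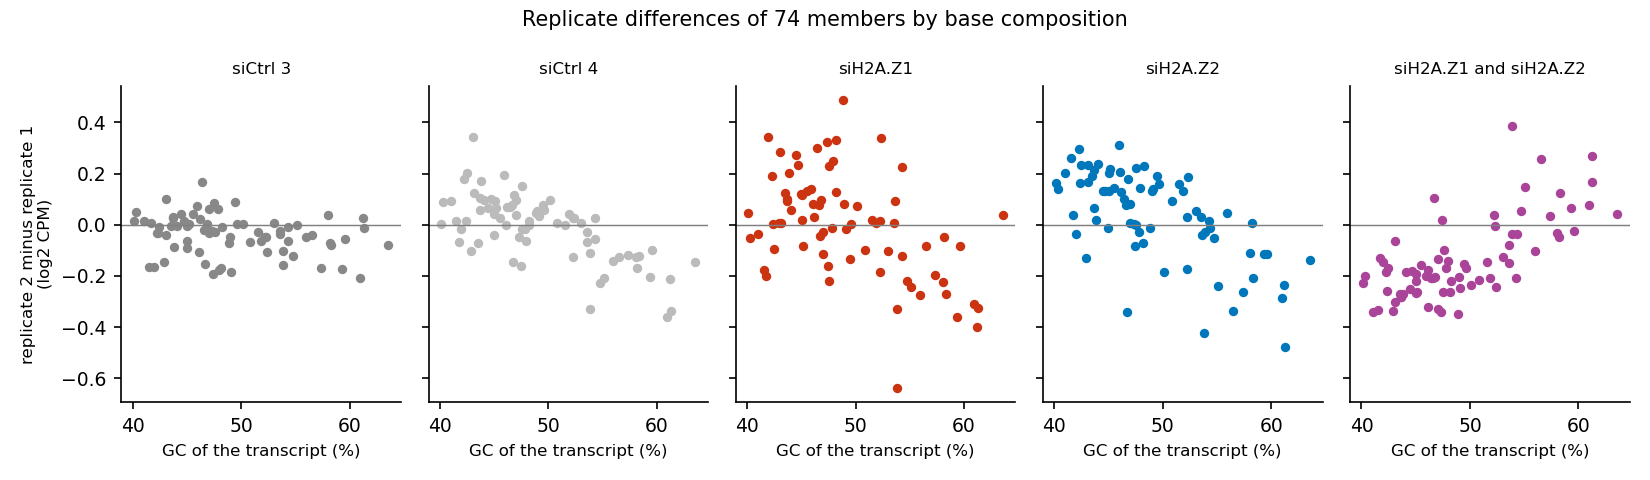
Replicate 2 minus replicate 1 (vertical axis, log2 CPM) against GC content of the transcript (horizontal axis, percent) for 74 members in each condition. Points fall with GC in siCtrl 4, siH2A.Z1 and siH2A.Z2 (r = -0.692, -0.49 and -0.658), less so in siCtrl 3 (r = -0.25), and climb with it in the combined depletion (r = 0.699).

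Of 33 members whose genes host a noncoding RNA in an intron, as many snoRNAs are, 13 were up-regulated upon H2A.Z.1 depletion (median 0.34), and of the other 44, 28 were (median 0.44). Of all members 53.2% and of all genes 12.2% were up-regulated, and the difference between the classes was not tested. The siRNA guides are printed since a short match of their seed, positions 2 to 8 (capitals), to a 3′UTR can lower an mRNA.
H2A.Z.1 guide: cUCAAUCAaaacccacuac
H2A.Z.2 guide: uCAACACAcaacugucacc
A perfect match to the H2A.Z.1 seed was found in the 3′UTRs of 2 members, RPL28 and RPS15A. Of 17227 genes with an annotated 3′UTR, 1767 held it. Upon H2A.Z.1 depletion RPS15A was the member with the highest fold change, and RPL28 was not called (log2 fold change 0.23 ± 0.12 SE, adjusted p = 0.18). The part of seed matches in these values was not tested. A match to the H2A.Z.2 seed was found in 8 members (RPL7, RPL10, RPL13, RPL14, RPL28, RPL37A, RPS16 and RPS23), whose median log2 fold change upon H2A.Z.2 depletion was -0.15, against -0.12 for all members, and 3076 of the 17227 genes held it.

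Related genes outside the rule were read in the same fits. FAU, which encodes a ribosomal protein fused to a ubiquitin-like protein, did not pass the test upon H2A.Z.1 depletion (log2 fold change 0.30 ± 0.13 SE, adjusted p = 0.138). Of 7 paralogs tested, 0 were up-regulated and 2 down-regulated upon H2A.Z.1 depletion, against 12.2% and 15.7% of all genes. RPL22L1 was at 59.3 and 53.8 CPM with siCtrl 3, 44.1 and 50 CPM with siCtrl 4 and 31.6 and 32.4 CPM (log2 fold change -0.70 ± 0.14 SE, adjusted p = 0.0136), below all controls in both libraries, and it was 30 and 37.7 CPM with siH2A.Z2. RPL39L was the other (log2 fold change -0.71 ± 0.14 SE, adjusted p = 0.0114). RPS27L (0.32) and RPL36AL (-0.19) were not called.

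Other gene lists are to be read beside the shares of all genes. These were 12.2% up-regulated and 15.7% down-regulated upon H2A.Z.1 depletion, and 7.77% and 9.35% in the combined depletion. Several of the counts below were close to them. Of the proteins of the mitochondrial ribosome, 2 of 77 tested were up-regulated and 8 down-regulated upon H2A.Z.1 depletion (median -0.02), and 0 and 5 in the combined depletion (median -0.24). MRPL3 rose (log2 fold change 0.51 ± 0.09 SE, adjusted p = 0.00817) and MRPL13 fell (log2 fold change -0.60 ± 0.11 SE, adjusted p = 0.00783). Of 15 TOP mRNAs that do not encode ribosomal proteins, 4 were up-regulated and 3 down-regulated upon H2A.Z.1 depletion (median 0.24). PABPC1, the poly(A)-binding protein, fell from 2076 and 2142 CPM with siCtrl 3 and 1664 and 1708 CPM with siCtrl 4 to 886 and 1039.6 CPM (log2 fold change -0.98 ± 0.15 SE, adjusted p = 0.00483), and HNRNPA1, a splicing regulator, fell too (log2 fold change -0.81 ± 0.09 SE, adjusted p = 0.0013). Of 34 ribosome biogenesis genes, 6 rose and 2 fell (median 0.15), among the former PNO1, a small subunit assembly factor (log2 fold change 0.70 ± 0.12 SE, adjusted p = 0.0071) and the helicase DDX21 (log2 fold change 0.57 ± 0.11 SE, adjusted p = 0.0113). In the combined depletion 0 of the 34 rose and 4 fell (median -0.28). Of 15 genes of the RNA polymerase I machinery 4 rose and 0 fell (median 0.09), with TAF1A (0.79) and TBP (0.43) lowest in adjusted p. Of 7 chaperones of ribosomal proteins 0 rose and 1, HEATR3, fell (log2 fold change -0.50 ± 0.10 SE, adjusted p = 0.0144), and PDCD2, a chaperone of RPS2, was not called (0.43). Of 20 ribosomal protein pseudogenes tested, 4 rose and 2 fell upon H2A.Z.1 depletion, with log2 fold changes of 0.96 for RPS16P5 and -1.30 for RPL13AP20, and since reads can be shared with the parent genes these values are uncertain.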

How the data were processed

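RNA was sequenced from 10 libraries of U2OS cells, in 5 conditions of 2 libraries. The authors aligned paired-end reads to hg38 with STAR and counted them by strand on RefSeq genes with HT-seq 0.6.1, and the deposited counts are raw. The authors also deposited 1 table per depletion with their fold changes, standard errors and p-values from DESeq2 1.22.1, which were not used here. The members and gene lists were chosen with earlier results of these data known.

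Tests used R 4.3.3 with edgeR 4.0.16, with DESeq2 1.42.0 as an alternative, and Python 3.11.15 with pandas 2.3.3, numpy 2.4.6 and matplotlib 3.10.9. Libraries were scaled by TMM and filtered by filterByExpr. The test was the quasi-likelihood test of edgeR over all genes, two-sided, with Benjamini-Hochberg adjustment, and a depletion was set against the controls pooled (4 libraries). The direct contrasts and the non-additive effect came from 1 fit of the 10 libraries with the controls pooled, and siCtrl 4 against siCtrl 3 from 1 fit with them apart. Members were called at an adjusted p under 0.05 and a log2 fold change beyond 0.32 in size (adjusted p alone for the non-additive effect). Counts at an unadjusted p under 0.05 were made for members only, not for all genes. Standard errors are the absolute log2 fold change over the square root of F. The code was tested on simulated data.

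Positions and lengths came from GENCODE v44, matched for 21264 of 23089 symbols, and starts from RefSeq. Named genes were H2AFZ and H2AFV, the 4 members with highest and lowest fold change in each comparison with controls and between the controls, those with highest and lowest level per length, a fixed list of well-known members and their relatives, the 4 members with lowest adjusted p among those called in the direct contrasts, and the 2 genes with lowest adjusted p in each other list. One gene named by this rule is not reported here. Other scalings, filters, controls, a replicate block and leaving out each library were tried.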

Additional observations from a re-analysis of the deposited data

Results flagged for a closer look

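RPS15 in siCtrl 4 replicate 1, at 219 CPM, stood apart from the other 3 control libraries (175 and 174 CPM with siCtrl 3 and 173 CPM in siCtrl 4 replicate 2) by Dixon's test. It was 1 of 36 named members examined this way, and chance flags about 1 in 20. The fold change of RPS15 upon H2A.Z.1 depletion did not pass the test (log2 fold change 0.29 ± 0.14 SE, adjusted p = 0.162).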

How the results depend on the processing

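Among the named members followed in each comparison, no call changed direction under any alternative run. In the direct contrasts these were at most the 4 called members with lowest adjusted p, and for the non-additive effect no member was followed. Scaling by library size alone moved the median of all genes by 0.10 upon H2A.Z.1 depletion, by 0.11 for siH2A.Z1 against siH2A.Z2 and by 0.10 for combined against siH2A.Z2. It gave members' medians of 0.50 upon H2A.Z.1 depletion, 0.28 in the combined depletion, 0.64 for siH2A.Z1 against siH2A.Z2 and 0.40 for combined against siH2A.Z2. In the combined depletion 12 members were higher against the controls and 29 against siH2A.Z2, where 10.8% and 7.78% of all genes were. Upper-quartile scaling gave a median of 0.48 upon H2A.Z.1 depletion. Against siCtrl 3 alone the medians were 0.34, -0.19 and 0.13 upon H2A.Z.1, H2A.Z.2 and combined depletion, and against siCtrl 4 alone 0.51, -0.014 and 0.32. Upon H2A.Z.2 depletion 1 member was higher with either control alone, where 8.99% of all genes were with siCtrl 3 and 16.9% with siCtrl 4. Lower were 9 members with siCtrl 3 and 2 with siCtrl 4, against 5.19% and 12.7% of all genes. In the combined depletion 36 members were higher against siCtrl 4 alone, where 23.9% of all genes were. DESeq2 called 1 member lower upon H2A.Z.2 depletion, and 1.19% of all genes. Without the low-count filter 2 members were higher in the combined depletion against the controls and 2 against siH2A.Z2, where 4.98% and 2.78% of all genes were. Without the fold threshold 25 members were lower with siCtrl 4 than with siCtrl 3, where 20.6% of all genes were.

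The labels give replicate numbers 1 and 2 in every condition and name no shared batch. Differences between replicate 1 and 2 correlated at 0.145 to 0.43 over all genes among controls and single depletions and at -0.112 to -0.405 with the combined depletion. Over the members the values were wider, 0.0185 to 0.599 and -0.328 to -0.626. Because the combined depletion went the other way, the numbers were taken as numbers only. What the replicates share was not tested. With the replicate block, 33 members were higher upon H2A.Z.1 depletion and 0 in the combined depletion, where 8.74% and 3.15% of all genes were. With siCtrl 4, 10 members were lower and 1 higher, against 17.4% and 17.8% of all genes. For siH2A.Z1 against siH2A.Z2 55 were higher and for combined against siH2A.Z2 4, where 12.3% and 3.74% of all genes were. With the numbers of the combined depletion crossed, an alternative chosen after seeing the data, the block gave 1 member higher in the combined depletion and 13 against siH2A.Z2. Of all genes 4.43% and 4.62% were higher there.

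Leaving out each library in turn gave 1 to 41 members higher upon H2A.Z.1 depletion (lowest without siH2A.Z1 replicate 2, 11 without siH2A.Z1 replicate 1), 0 to 3 in the combined depletion, 4 to 16 lower with siCtrl 4, 25 to 61 higher for siH2A.Z1 against siH2A.Z2, and 0 to 12 for combined against siH2A.Z2. The medians ranged over 0.38 to 0.47, -0.17 to -0.08, 0.11 to 0.26, -0.20 to -0.15, 0.50 to 0.61, -0.30 to -0.17, 0.25 to 0.40 and -0.17 to -0.0081 for H2A.Z.1, H2A.Z.2 and combined depletion, siCtrl 4 against siCtrl 3, siH2A.Z1 against siH2A.Z2, combined against siH2A.Z1, combined against siH2A.Z2 and the non-additive effect. A condition left with 1 library was assumed to vary like the others, because its own spread cannot be measured. Counts from such fits therefore cannot show whether members were called more often than all genes. Calls over all genes also fell in a depletion's own comparisons when it was left with 1 library. Shares of the library held by members changed by at most the spread of replicates when pseudogene rows were added.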
